A study of Homo sapiens with 6 samples.

Results

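The regions described here are control TLE3 regions that had a peak in only 1 of the 2 libraries made after FOXA1 silencing. The cells were MDA-MB-453, a line of human breast cancer, and TLE3-bound DNA was sequenced after chromatin immunoprecipitation (ChIP-seq). The siFOXA1 group held 2 libraries of cells in which FOXA1 was silenced transiently. The siNS group held 2 libraries of cells of the same line without FOXA1 silencing. The siNS titles share the prefix si with the siFOXA1 titles and do not spell out the control treatment, so these cells are not called untreated. All 4 libraries were titled as biological replicates, shared a TLE3 antibody and came from cells treated with a further cross-linker ahead of formaldehyde. The question was how far TLE3 binding requires FOXA1. The peaks of the 4 libraries were merged where they shared at least 1 bp, on chromosomes 1 to 22 and X, which gave 72272 regions. A siNS consensus region holds a peak of both siNS libraries, and there were 24967 of them. A consensus region was called singly kept when it also held a peak of exactly 1 siFOXA1 library. There were 1633 singly kept regions, which is 6.54% of the siNS consensus regions (exact 95% binomial interval 6.24 to 6.85%) and 2.26% of all merged regions. Of these, 749 (3% of consensus regions) were kept in siFOXA1 1 only and 884 (3.54%) in siFOXA1 2 only. A further 2602 consensus regions (10.4%) were kept in both siFOXA1 libraries and 20732 (83%) in neither. The regions were chosen by the peak calls of all 4 libraries, so these counts, and the scores and ranks below, are descriptions without a test. The 6.54% depends on the lists compared. It was 3.7% of 45053 regions without siNS 2 and 11.6% of 7639 regions with lists of equal length, where 67.8% were kept in neither. Intervals cover counting error over regions and not variation between cultures.

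TLE3 is a corepressor of the Groucho family. It does not recognise DNA itself and depends for binding on partner proteins that do, among them HES and RUNX proteins, TCF/LEF factors and forkhead factors. Once there it represses nearby genes, in part through histone deacetylases. FOXA1 is a pioneer factor of the forkhead family in luminal breast cells, which binds closed chromatin and opens it for other factors such as the oestrogen and androgen receptors.

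The lists of siFOXA1 1 and siFOXA1 2 held 12249 and 13754 peaks on these chromosomes, against 45105 and 46586 in the lists of siNS 1 and siNS 2. The lists give a position and a score per peak and no reads, so depth is unknown, and neither FOXA1 nor TLE3 levels, nor markers of the cell type, could be read from them. The lowest scores were 2.06 and 2.03 in the siFOXA1 lists and 2.01 and 2.03 in the siNS lists. The score is the authors' own and its definition is not given in the sources used here. Here it serves to order the peaks of 1 list, as a percentile rank that is highest for the best peak. Where scores of several lists stand side by side, they are the deposited values of each list, and their sizes are not comparable between lists.

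The promoter measures left out a chromosome that is named under the processing, which leaves 1583 of the 1633 singly kept regions. Of these 1583, 263 overlapped the promoter window of a protein-coding gene. Of the 263, 129 were kept in siFOXA1 1 only and 134 in siFOXA1 2 only. Like counts of regions are not given for the other classes, so the 263 are not compared with them. A window runs from 250 bases before to 50 bases after a start site of the RefSeq table (GRCh38.p14). Of all 22012 windows, 374 lay under singly kept regions, 242 under regions kept in both and 10547 under regions kept in neither. Shown first are the windows under those of the 263 regions that had the highest siNS ranks. A window covers only part of its region. The lists do not show where within a region TLE3 was strongest, and whether the siFOXA1 peak lay in the window was not examined. Capitals mark matches on either strand to the forkhead motif TGTTTAC and its variants TATTTAC and TGTTTGC, the HES motif CACGCG, the E-box CACGTG and the AP-2 motif GCCNNNGGC. For siFOXA1 1 these are the windows of TTC39A (chr1:51330513-51330812, minus strand), H3-3A (chr1:226062197-226062496, plus strand), which encodes the replacement histone H3.3, and TRAF5 (chr1:211326583-211326882, plus strand), an adaptor of tumour necrosis factor receptors.

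TTC39A: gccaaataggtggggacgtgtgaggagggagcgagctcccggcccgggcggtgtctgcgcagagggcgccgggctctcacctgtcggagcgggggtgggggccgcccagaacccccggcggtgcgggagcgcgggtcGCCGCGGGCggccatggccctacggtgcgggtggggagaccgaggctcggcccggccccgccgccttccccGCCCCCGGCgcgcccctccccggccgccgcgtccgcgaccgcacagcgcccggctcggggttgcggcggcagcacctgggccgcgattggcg

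H3-3A: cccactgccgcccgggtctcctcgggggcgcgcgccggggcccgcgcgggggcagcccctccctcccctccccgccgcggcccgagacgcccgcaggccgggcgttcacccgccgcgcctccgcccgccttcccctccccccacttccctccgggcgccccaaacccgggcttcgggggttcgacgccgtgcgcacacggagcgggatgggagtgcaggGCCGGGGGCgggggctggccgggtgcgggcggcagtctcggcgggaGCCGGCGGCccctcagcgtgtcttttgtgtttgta

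TRAF5: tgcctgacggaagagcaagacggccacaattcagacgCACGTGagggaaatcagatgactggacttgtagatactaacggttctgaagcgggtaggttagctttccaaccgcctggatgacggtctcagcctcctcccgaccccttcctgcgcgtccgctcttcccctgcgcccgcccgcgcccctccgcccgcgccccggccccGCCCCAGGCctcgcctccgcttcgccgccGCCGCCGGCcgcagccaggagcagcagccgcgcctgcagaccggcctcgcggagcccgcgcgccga

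For siFOXA1 2 they are the windows of RCAN3 (chr1:24502586-24502885, plus strand), a calcineurin regulator, MTARC1 (chr1:220786663-220786962, plus strand), a mitochondrial amidoxime-reducing enzyme, and EFNA1 (chr1:155127626-155127925, plus strand), the ephrin A1 ligand. Those of RCAN3 and EFNA1 held none of the motifs in capitals.

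RCAN3: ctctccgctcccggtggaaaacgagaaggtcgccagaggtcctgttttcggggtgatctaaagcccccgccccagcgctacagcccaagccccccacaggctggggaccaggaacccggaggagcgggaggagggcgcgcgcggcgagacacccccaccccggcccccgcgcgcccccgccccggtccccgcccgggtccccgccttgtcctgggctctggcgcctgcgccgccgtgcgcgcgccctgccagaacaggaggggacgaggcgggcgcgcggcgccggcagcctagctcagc

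MTARC1: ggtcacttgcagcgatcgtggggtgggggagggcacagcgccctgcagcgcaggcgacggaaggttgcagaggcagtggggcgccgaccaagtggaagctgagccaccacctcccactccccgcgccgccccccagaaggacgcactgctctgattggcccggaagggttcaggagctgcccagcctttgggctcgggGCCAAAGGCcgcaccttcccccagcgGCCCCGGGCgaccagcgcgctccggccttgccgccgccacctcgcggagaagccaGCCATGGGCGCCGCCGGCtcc

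EFNA1: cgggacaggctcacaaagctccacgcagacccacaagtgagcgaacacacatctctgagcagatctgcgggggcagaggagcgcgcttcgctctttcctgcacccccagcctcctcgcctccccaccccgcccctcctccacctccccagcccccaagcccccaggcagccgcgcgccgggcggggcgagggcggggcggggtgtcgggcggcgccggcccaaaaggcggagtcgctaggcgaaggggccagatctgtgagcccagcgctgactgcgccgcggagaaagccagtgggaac

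Windows of genes from the lists described below are shown for HES1 (chr3:194135898-194136197, plus strand), a Notch-responsive repressor that recruits Groucho proteins, DLL4 (chr15:40929090-40929389, plus strand), a Notch ligand, and HDAC7 (chr12:47819854-47820153, minus strand), a class IIa histone deacetylase. HES1 and DLL4 each held the HES motif, HES1 at 2 places as its reverse complement and DLL4 at 1.

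HES1: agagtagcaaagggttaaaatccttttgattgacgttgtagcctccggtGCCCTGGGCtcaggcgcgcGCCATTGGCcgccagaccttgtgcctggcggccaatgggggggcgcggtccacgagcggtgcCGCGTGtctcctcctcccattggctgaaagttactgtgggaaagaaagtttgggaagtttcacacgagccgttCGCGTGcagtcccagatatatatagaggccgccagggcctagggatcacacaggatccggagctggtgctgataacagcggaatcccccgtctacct

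DLL4: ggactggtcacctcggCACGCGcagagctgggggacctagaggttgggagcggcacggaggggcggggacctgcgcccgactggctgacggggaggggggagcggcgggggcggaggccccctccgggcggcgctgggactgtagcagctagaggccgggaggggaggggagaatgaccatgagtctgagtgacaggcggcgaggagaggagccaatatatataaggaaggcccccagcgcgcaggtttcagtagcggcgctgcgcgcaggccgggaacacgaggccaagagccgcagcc

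HDAC7: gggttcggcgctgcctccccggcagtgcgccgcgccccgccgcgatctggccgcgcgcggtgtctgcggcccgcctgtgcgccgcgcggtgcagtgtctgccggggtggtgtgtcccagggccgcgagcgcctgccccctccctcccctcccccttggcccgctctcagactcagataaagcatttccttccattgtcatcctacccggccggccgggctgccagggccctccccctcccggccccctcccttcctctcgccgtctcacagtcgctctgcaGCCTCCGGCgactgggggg

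The windows of EXOG (chr3:38496090-38496389, plus strand), a mitochondrial nuclease gene, and YPEL3 (chr16:30096164-30096463, minus strand) were chosen after the data were seen. They lay under the strongest singly kept regions whose window held the forkhead motif TGTTTAC. The EXOG region scored 5.67 in siFOXA1 2, against 170 in siNS 1 and 143 in siNS 2. The YPEL3 region scored 16.2 in siFOXA1 1, against 212 in siNS 1 and 127 in siNS 2.

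EXOG: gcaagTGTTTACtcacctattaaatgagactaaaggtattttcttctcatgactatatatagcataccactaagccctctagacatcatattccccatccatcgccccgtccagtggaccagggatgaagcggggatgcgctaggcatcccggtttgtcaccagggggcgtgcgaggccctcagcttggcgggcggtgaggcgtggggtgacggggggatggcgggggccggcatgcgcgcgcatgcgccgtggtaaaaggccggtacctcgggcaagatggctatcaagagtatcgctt

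YPEL3: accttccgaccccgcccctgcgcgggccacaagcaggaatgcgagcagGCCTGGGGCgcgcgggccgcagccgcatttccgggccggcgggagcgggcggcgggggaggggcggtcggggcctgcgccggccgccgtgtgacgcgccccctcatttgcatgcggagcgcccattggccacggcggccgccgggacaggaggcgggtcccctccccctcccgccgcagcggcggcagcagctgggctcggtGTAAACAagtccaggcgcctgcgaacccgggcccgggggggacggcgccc

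Forkhead motifs were found in few of the promoter windows under singly kept regions. Any of the 3 forkhead motifs was found in 6.68% of the 374 windows (4.37 to 9.71%), against 8.26% of the 242 windows under regions kept in both siFOXA1 libraries, 5.21% of the 10547 under regions kept in neither and 7.98% of all 22012 windows. The motif TGTTTAC alone was found in 3.48%, against 2.48%, 2.04% and 2.86% in the same order. Windows under singly kept regions were rich in G and C, with a median of 69.0%, against 67.2% for regions kept in both, 67.3% for regions kept in neither and 62.3% for all windows. The AP-2 motif was found in 42.2% of windows under singly kept regions (37.2 to 47.4%), against 36.8% under regions kept in both, 36.4% under regions kept in neither and 27.4% of all windows. The HES motif was found in 27.3% (22.8 to 32.1%), against 22.3%, 20.6% and 14.2%, and the E-box in 14.7% (11.3 to 18.7%), against 9.09%, 10.5% and 8.32%. For the AP-2, HES and E-box motifs the intervals of singly kept regions and of regions kept in both overlapped. The ETS motif CCGGAA was found in 21.1% (17.1 to 25.6%), near the 20.7% under regions kept in both and the 21.1% of all windows, and in 30.5% under regions kept in neither. Several windows can lie under 1 region, the part of base composition in these shares was not tested, and a match is no proof of a site.

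The peak that remained in 1 siFOXA1 library was a weak one for its list. In regions kept in siFOXA1 1 only, its score ranged from 2.79 to 23.6 with a median of 7.07, and in regions kept in siFOXA1 2 only from 2.34 to 33.9 with a median of 7.99. Regions kept in both had median scores of 14.6 in siFOXA1 1 and 15.9 in siFOXA1 2. As ranks, the singly kept peaks had a median percentile of 32.7 in the list of siFOXA1 1 and 34.6 in that of siFOXA1 2, against 71.0 and 70.8 for regions kept in both. Of the 749 regions kept in siFOXA1 1 only, 76.9% ranked below the middle of that list and 0 lay in its top 10%. Of the 884 kept in siFOXA1 2 only, 74.1% ranked below the middle and 1 lay in the top 10%. The siFOXA1 peak was also narrow. Its median width was 289 bp in siFOXA1 1 and 288 bp in siFOXA1 2, against 405 and 420.5 bp in regions kept in both. It covered a median of 41.2% and 42.7% of the mean width of the siNS peaks, against 56.5% and 57.5% in regions kept in both. Its centre lay a median of 73.0 bp from that of the nearest control peak in each siFOXA1 library, against 60.5 and 65.75 bp in regions kept in both. A short distance is partly set by the selection, which requires control peaks in the same merged region.

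In the control lists the same regions were far from weak. The median siNS 1 rank was 84.5 for regions kept in siFOXA1 1 only and 80.8 for those kept in siFOXA1 2 only. That was close to the 86.2 of regions kept in both and above the 70.1 of regions kept in neither. The median siNS 2 ranks were 87.3 and 86.1, against 93.9 for regions kept in both and 59.7 for those kept in neither. In siNS 1, 39.4% of the regions kept in siFOXA1 1 only and 34.2% of those kept in siFOXA1 2 only were in the top 10% of the list. In siNS 2 these shares were 39.5% and 39.6%. The lowest siNS ranks among singly kept regions stretched down to 0.194 in siNS 1 and 0.645 in siNS 2, so the range covered nearly the whole of both lists. The median siNS 1 peak width was 648 and 624 bp in the 2 singly kept sets, 622 bp in regions kept in both and 697 bp in regions kept in neither. In siNS 2 the widths were 787 and 753 bp, against 831.5 and 601 bp.

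**Figure D1:**
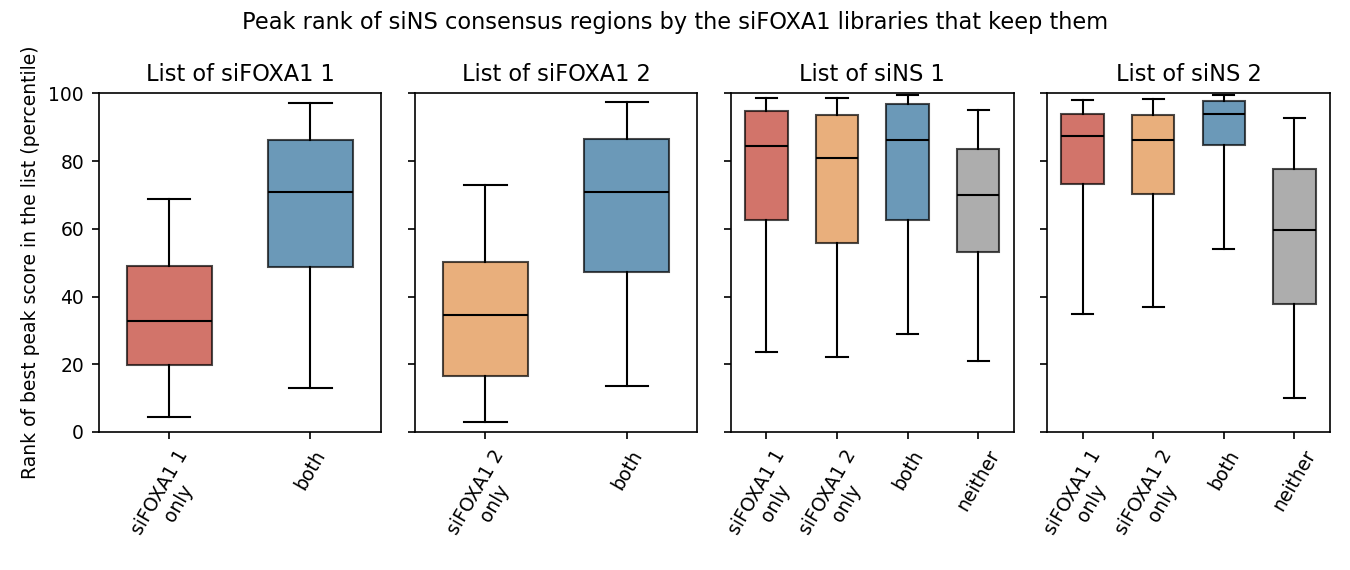
Rank of the best peak score of each siNS consensus region within each library's list (percentile, 100 highest), by the siFOXA1 libraries that keep the region. Boxes show the median and quartiles and whiskers the 5th and 95th percentile over regions, and singly kept regions have medians of 32.7 and 34.6 in the siFOXA1 lists and of 80.8 to 87.3 in the siNS lists.

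Singly kept regions stood between the other classes in how the 2 control libraries ranked them. A region ranked higher in siNS 1 than in siNS 2 in 53.0% of cases for regions kept in siFOXA1 1 only (49.4 to 56.6%) and in 48.8% for those kept in siFOXA1 2 only (45.4 to 52.1%). The share was 38.6% for regions kept in both and 73.3% for regions kept in neither. Regions kept in neither siFOXA1 library thus tended to rank higher in siNS 1, and regions kept in both to rank higher in siNS 2, while the singly kept regions were nearly evenly divided. Among singly kept regions the siFOXA1 rank barely followed the siNS rank. Across regions, Spearman's rho between them was 0.115 for the 749 in siFOXA1 1 and 0.0129 for the 884 in siFOXA1 2, and 0.179 and 0.134 for the 2602 regions kept in both. These are descriptions over regions that share 4 libraries. In the weakest 10% of consensus regions by siNS rank, singly kept peaks had a median siFOXA1 rank of 29.7 in siFOXA1 1 and 32.7 in siFOXA1 2. In the strongest 10% the medians were 39.1 and 35.7.

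The stronger a control region, the more often it was kept in a single siFOXA1 library. Strength is the mean of a region's ranks in the 2 siNS lists, in 10 equal bins. Of the weakest bin, 62 of 2497 regions (2.48%) were singly kept, and of the strongest 425 of 2496 (17.0%). The share was higher in each bin than in the one below. Regions kept in both differed more between bins, with 25 regions (1.0%) in the weakest bin and 1029 (41.2%) in the strongest. Singly kept regions therefore made up 71.3% of all kept regions in the weakest bin (60.6 to 80.5%), 42.6% in the fifth-weakest bin (36.7 to 48.6%) and 29.2% in the strongest (26.9 to 31.6%). Over all bins they were 38.6% of the 4235 kept regions. Without siNS 1, when a peak of siNS 2 alone is enough, 3225 regions were singly kept, and without siNS 2 there were 1669.

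**Figure D2:**
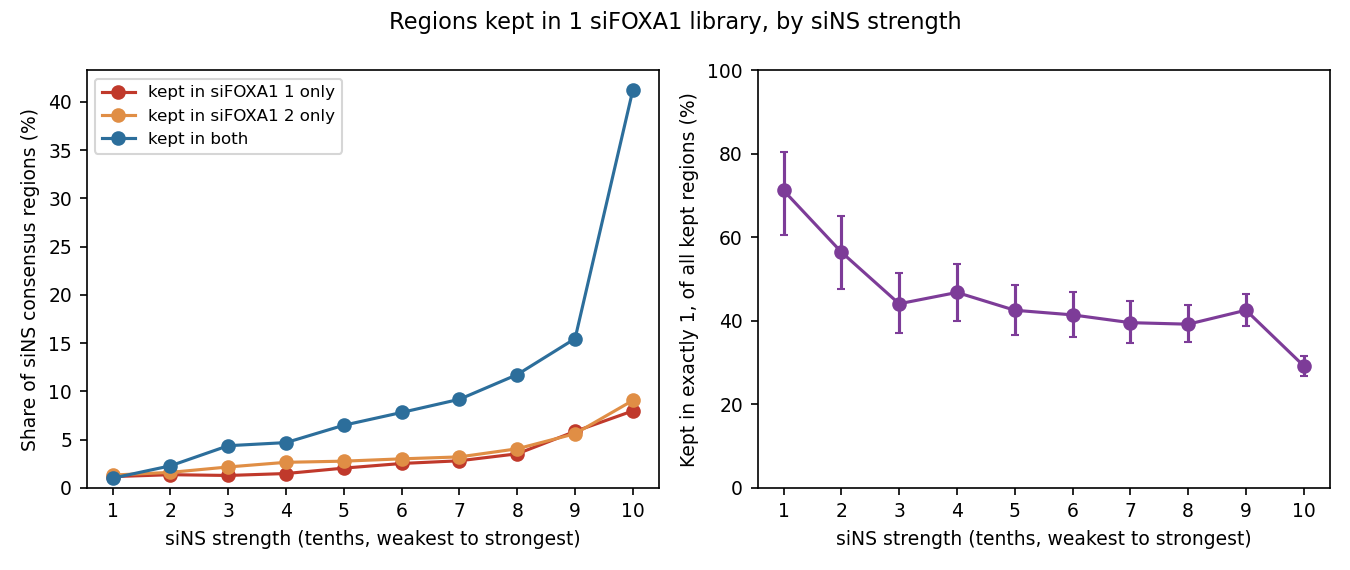
Left, share of siNS consensus regions in each strength bin that were kept in siFOXA1 1 only, in siFOXA1 2 only or in both, and right, regions kept in exactly 1 library as a share of all kept regions, with exact 95% binomial intervals. Singly kept regions rise to 17.0% of the strongest bin in all, while their share of kept regions falls to 29.2%.

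Whether a siFOXA1 peak had a partner in the other siFOXA1 library went with its rank. Of the siNS consensus regions with a siFOXA1 1 peak, 22.4% lacked a siFOXA1 2 peak, and of those with a siFOXA1 2 peak 25.4% lacked a siFOXA1 1 peak. In the lowest 10% of the siFOXA1 1 list the share was 52.0% (103 of 198), and in the highest 10% 0 of 479 regions were single. In siFOXA1 2 the shares were 58.8% (134 of 228) and 0.207% (1 of 483). Regions without any siNS peak were single more often, in 42.0% of 5662 for siFOXA1 1 and 52.6% of 6919 for siFOXA1 2. In the lowest 10% the shares at siNS consensus regions were 52.0% (44.8 to 59.2%) in siFOXA1 1 and 58.8% (52.1 to 65.2%) in siFOXA1 2, against 78.1% (75.1 to 80.8%) and 81.2% (78.3 to 83.9%) without a siNS peak. At higher ranks the libraries differed. In the fourth-highest bin of siFOXA1 1 the shares were 18.3% at consensus regions and 16.4% without a siNS peak, with overlapping intervals. In siFOXA1 2 they were 18.8% (15.1 to 22.98%) at consensus regions and 35.7% (32.04 to 39.4%) without a siNS peak. Regions with a peak of only 1 siNS library lay near the consensus regions, with 24.6% and 28.1% single over all ranks.

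**Figure D3:**
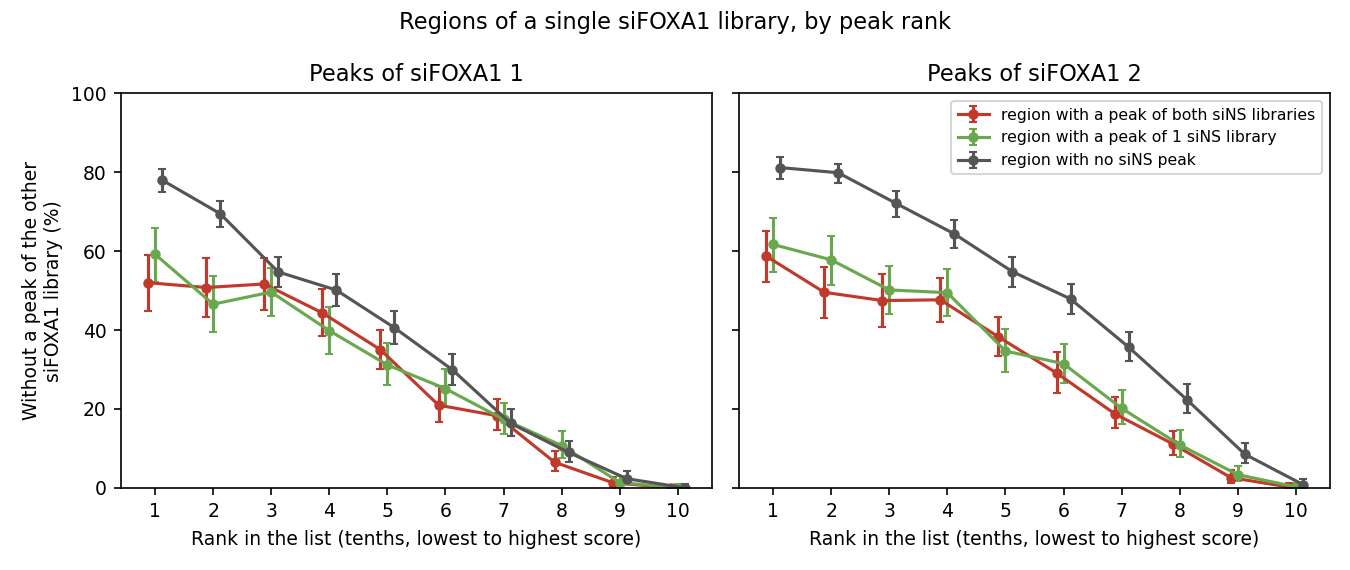
Share of regions with a peak of the named siFOXA1 library that lack a peak of the other one, by the rank of the peak in 10 bins, for regions with a peak of both, 1 or none of the siNS libraries. Bars are exact 95% binomial intervals, and the shares at siNS consensus regions fall from 52.0% and 58.8% in the lowest bin to 0 and 0.207% in the highest.

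The siFOXA1 library that lacked a region seldom had a peak just beside it. The nearest siFOXA1 2 peak lay a median of 43418 bp from regions kept in siFOXA1 1 only, and the nearest siFOXA1 1 peak 45911.5 bp from those kept in siFOXA1 2 only. For regions kept in neither these medians were 63840.5 bp to siFOXA1 2 and 68601 bp to siFOXA1 1. Within 1 kb, 28 of the 749 (3.74%) and 24 of the 884 (2.71%) had such a peak, and 0 of each had one within 100 bp. Of regions kept in neither, 1.75% had a siFOXA1 2 peak within 1 kb and 1.64% a siFOXA1 1 peak. Within 5000 bp the shares were 14.2% and 13.8% for the singly kept sets, against 7.59% and 7.14% for regions kept in neither. A peak of the lacking library was thus uncommon within 1 kb. For regions kept in siFOXA1 1 only it was more frequent there than for regions kept in neither (2.5 to 5.36% against 1.58 to 1.94%). For regions kept in siFOXA1 2 only the intervals overlapped (1.75 to 4.01% against 1.47 to 1.82%). Just outside the overlap rule was a region on chromosome 4 (chr4:138912420-138912996), kept in siFOXA1 2 with a score of 6.37 and 104 bp from a siFOXA1 1 peak with a score of 4.47. Just inside was a region at MRPL33, a mitochondrial ribosomal protein gene (chr2:27771502-27772412), which counted as kept in both although its siFOXA1 2 peak shared only 56 bp with a peak of another library. Widening all peaks by 250 bp on each side gave 1670 singly kept regions.

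Singly kept regions lay at gene ends more often than regions kept in both and less often than regions kept in neither. Position against genes was not part of the selection. Protein-coding genes had an end within 1 kb of 23.5% of regions kept in siFOXA1 1 only (20.5 to 26.7%) and 20.1% of those kept in siFOXA1 2 only (17.5 to 22.9%). The shares were 12.1% for regions kept in both (10.9 to 13.4%) and 48.2% for those kept in neither (47.5 to 48.8%). Inside genes but away from their ends were 40.3% and 44.2% of the 2 singly kept sets, 45.8% of regions kept in both and 29.8% of those kept in neither. Between genes lay 36.2% and 35.6%, against 42.0% and 22.05%. The intervals of the singly kept sets did not overlap those of the other classes at gene ends. With only the better-scoring 50% of each list they did for siFOXA1 2, with 13.7% (10.5 to 17.5%) against 12.3% (10.5 to 14.2%) for regions kept in both, while siFOXA1 1 had 18.2% (14.6 to 22.2%). Regions are not replicates, and no test over samples was run. Without siNS 1 the shares at gene ends were 12.9% and 11.9% in the singly kept sets, 7.26% in regions kept in both and 32.8% in regions kept in neither.

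The order of the classes at gene ends was also seen at like strength for the stronger regions. In the strongest bin, 38.4% of singly kept regions lay at a gene end (33.7 to 43.2%), against 20.7% of regions kept in both (18.3 to 23.3%) and 52.4% of those kept in neither (49.3 to 55.5%). In the weakest bin, 3 of 62 singly kept regions did (4.84%), against 0 of 25 kept in both and 29.3% of regions kept in neither. With the other classes weighted to the strength bins of the singly kept regions, the shares were 21.7% for singly kept regions, 9.87% for regions kept in both and 52.3% for those kept in neither. Singly kept regions were above regions kept in both in 8 of 10 bins and below regions kept in neither in 10 of 10. Weighted instead to the siFOXA1 ranks of the singly kept regions, regions kept in both had 14.1% at gene ends for siFOXA1 1, against 23.5%, and 14.8% for siFOXA1 2, against 20.1%. Of all consensus regions at gene ends, 3.32% were singly kept (3.0 to 3.68%), against 8.6% inside genes and 9.37% between genes. Of the 669 kept regions at gene ends, 52.9% were singly kept (49.1 to 56.8%), against 36.7% inside genes and 34.9% between them.

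**Figure D4:**
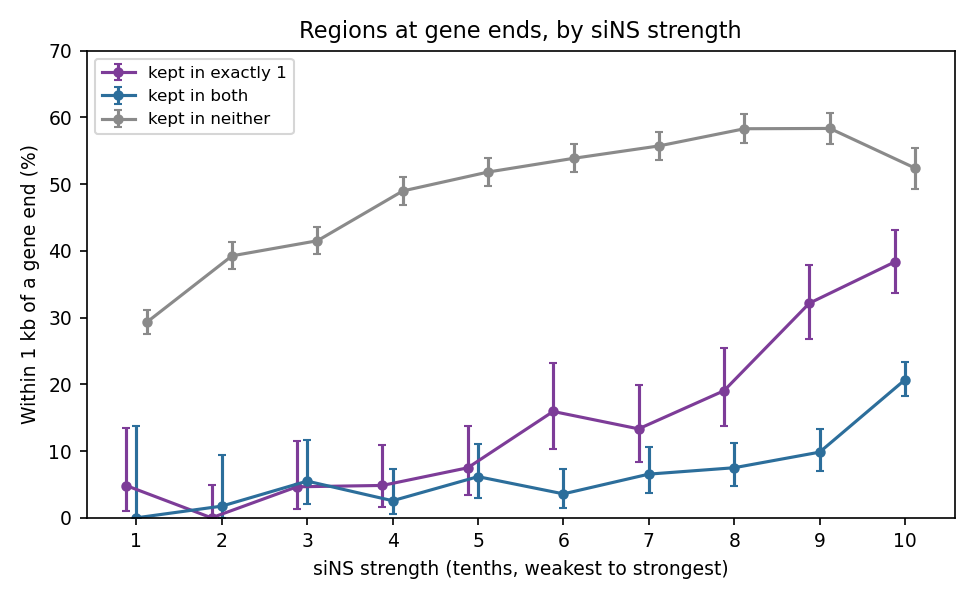
Share of siNS consensus regions at most 1 kb from a protein-coding gene's end, by siNS strength in 10 bins, for regions kept in exactly 1 siFOXA1 library, in both and in neither, with exact 95% binomial intervals. In the strongest bin the shares are 38.4%, 20.7% and 52.4%.

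Control peaks of singly kept regions ranked higher and were wider at gene ends than between genes. Singly kept regions there had median siNS 1 ranks of 94.5 for siFOXA1 1 and 93.4 for siFOXA1 2, with median siNS 1 peak widths of 1292 and 1250 bp. Between genes the median siNS 1 ranks were 74.7 and 70.6 and the widths 525 and 518 bp. The siFOXA1 peaks did not share this difference. Their median widths were 287.5 and 283 bp at gene ends and 290 and 285 bp between genes, and their median ranks 31.2 and 31.7 at gene ends and 32.7 and 33.2 between genes.

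The strongest singly kept region in the controls lay inside ECE1, which encodes an endothelin-converting enzyme (chr1:21338011-21339560). It scored 17.1 in siFOXA1 2 and had no siFOXA1 1 peak, against 637 in siNS 1 and 503 in siNS 2. A region inside PGAP3, a glycolipid anchor remodelling gene next to ERBB2 (chr17:39674314-39676738), scored 4.63 in siFOXA1 2, against 569 in siNS 1 and 376 in siNS 2. A region at an end of CFAP65, a cilia and flagella gene (chr2:218999909-219003536), scored 14.6 in siFOXA1 2, against 534 in siNS 1 and 365 in siNS 2. These regions ranked at 6.79 to 73.5 in the siFOXA1 2 list and above 99 in both siNS lists. Others kept in siFOXA1 2 only were at ends of CDX2, an intestinal homeobox factor, RCAN3, RAI1 and MTARC1, and inside GSE1. Their siFOXA1 2 scores ran from 6.5 at MTARC1 to 8.89 at CDX2.

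The CFAP65 region also held the hairpin of MIR375 (chr2:219001645-219001708, minus strand), a microRNA known from luminal breast cancer cells and pancreatic islets. One of its mature sequences is shown with the seed, bases 2 to 8, in capitals, beside those of MIR191 (chr3:49020618-49020709) and MIR425 (chr3:49020148-49020234). The last 2 lay together on the minus strand within 1 region at DALRD3, kept in siFOXA1 1 only. That region scored 6.97 in siFOXA1 1, against 150 in siNS 1 and 141 in siNS 2. The 3 sequences have different seeds.

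hsa-miR-375-3p: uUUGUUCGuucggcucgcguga

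hsa-miR-191-5p: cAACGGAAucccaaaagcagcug

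hsa-miR-425-3p: aUCGGGAAugucguguccgccc

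Among regions kept in siFOXA1 1 only, the strongest in the controls lay inside TTC39A (chr1:51328822-51331048). It scored 8.79 in siFOXA1 1 and had no siFOXA1 2 peak, against 375 in siNS 1 and 282 in siNS 2. The region at H3-3A scored 13.3 in siFOXA1 1, against 386 in siNS 1 and 217 in siNS 2, and that at TRAF5 6.28, against 292 and 225 in siNS 1 and siNS 2. The others were at an end of P3H4, a collagen hydroxylation cofactor gene, inside SRGAP3, and between genes nearest to NRF1, TSPEAR and CSF3R. CSF3R encodes the granulocyte colony-stimulating factor receptor. Their siFOXA1 1 scores ran from 4.92 near NRF1 to 11.8 at P3H4.

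The regions that ranked highest in a siFOXA1 list were other ones. The highest was inside BCOR, a corepressor of BCL6 on chromosome X (chrX:40173424-40174652). It scored 33.9 in siFOXA1 2, a rank of 90.4, against 109 in siNS 1 and 61.7 in siNS 2, and the nearest siFOXA1 1 peak lay 80104 bp away. The next were at CTTNBP2NL, with 32.1 in siFOXA1 2, between genes on chromosome 12, with 29.3, and near TGFB1, which encodes transforming growth factor beta 1, with 27.0. The TGFB1 region lay 312 bp from a siFOXA1 1 peak. CRISPLD2 followed with 26.5. In siFOXA1 1 the highest scores were 23.6 inside MZT2A, 23.5 between genes on chromosome 3 and 21.8 near CLMN, and 21.0 and 20.8 between genes on chromosomes 2 and 8. At the other extreme, the region with the lowest mean siNS rank among those kept in siFOXA1 2 only lay between genes near RAD51B, a DNA repair gene. It scored 5.5 in siFOXA1 2, against 5.57 in siNS 1 and 3.51 in siNS 2. The next were inside GRB2, an adaptor of receptor tyrosine kinases, and near SLC44A3. For siFOXA1 1 the lowest were near UBE2V1P16, IGFBP5 and CROCC2. The IGFBP5 region, near a gene for a growth factor binding protein, scored 8.67 in siFOXA1 1, against 3.56 in siNS 1 and 7.46 in siNS 2.

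Singly kept regions were spread thinly over many genes. Regions went to the protein-coding gene around them or, failing that, to the closest within 100 kb, which gave a gene for 1494 of the 1633 regions. They fell to 1314 of the 12341 genes with an assigned consensus region. Of the 1314, 1162 had 1 singly kept region, 131 had 2 and 21 had 3 or more. At 955 of the 1314 genes no region was kept in both siFOXA1 libraries. At 75 genes 1 region was kept in siFOXA1 1 only and another in siFOXA1 2 only. Only 10.4% of all consensus regions were kept in both, and like counts over all genes are not given, so these counts mark no trait of the genes. By chromosome, the share of consensus regions that was singly kept ran from 5.27% on chromosome 19 (86 of 1632) to 8.99% on chromosome 18 (34 of 378). Within 50 kb of another singly kept region lay 20.5% of singly kept regions, against 22.02% of regions kept in both and 16.9% of those kept in neither. Within 50 kb of a region kept in both lay 29.0% of singly kept regions, 34.1% of regions kept in both and 22.1% of those kept in neither.

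KCNMA1, a calcium-activated potassium channel gene on chromosome 10, had the most, with 7 singly kept regions among its 23 siNS consensus regions. Of these, 6 were kept in siFOXA1 1 only and 1 in siFOXA1 2 only, while 4 other regions were kept in both and 12 in neither. The 6 peaks scored 2.96 to 10.5 in siFOXA1 1. All 7 lay inside the gene, which is 768 kb long. ZBTB7C, a zinc finger gene of 386 kb on chromosome 18, had 5, with 4 kept in siFOXA1 1 only and 1 in siFOXA1 2 only, all inside the gene. Counts are not adjusted for gene length.

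RARA, the retinoic acid receptor alpha gene (chromosome 17, 40309180 to 40357643), had 4 singly kept regions of 8 in a gene of 48.5 kb. The region at its end (chr17:40306902-40308182) scored 5.9 in siFOXA1 1, against 22.4 in siNS 1 and 31.8 in siNS 2. Inside the gene, chr17:40314229-40315030 scored 4.13 in siFOXA1 2, against 36.9 in siNS 1 and 19.8 in siNS 2. The region chr17:40330196-40331213 scored 5.05 in siFOXA1 2, against 13.6 in siNS 1 and 14.5 in siNS 2, and chr17:40331434-40332894 scored 7.38 in siFOXA1 1, against 68.3 in siNS 1 and 25.8 in siNS 2. Within their own lists, these 4 regions ranked at 3.26 to 34.0 in the siFOXA1 lists and at 57.4 to 92.7 in the siNS lists. Of the other 4 RARA regions, 2 were kept in both siFOXA1 libraries and 2 in neither. AGAP1, CASZ1, CD46, CDC25B, CRTC1, EDN2 and FGD5 had 3 each. At CDC25B, a phosphatase that activates cyclin-dependent kinases, these were 3 of only 4 consensus regions and none was kept in both. The highest scored 16.3 in siFOXA1 2, against 175 in siNS 1 and 110 in siNS 2. CASZ1, a zinc finger factor, had 3 of 24, and EDN2, which encodes endothelin 2, had 3 of 10, all in siFOXA1 2. With genes limited to 10 kb, CD46 had 0, EDN2 had 1 and CASZ1 had 2.

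Of 11 gene lists with 276 different genes, the oestrogen response and luminal identity lists had the highest shares of singly kept regions. The share over all consensus regions was 6.54%, with a further 10.4% kept in both and 83% in neither. Oestrogen response genes had 13 of 72 consensus regions singly kept (18.1%, 9.98 to 28.9%), at 7 of 24 genes, with 8 in siFOXA1 1 and 5 in siFOXA1 2. Of the same 72 regions, 12 were kept in both and 47 in neither. RARA alone held 4 of the 13, and the peak lists do not show whether the oestrogen receptor was present. Besides RARA the genes included CISH, a feedback inhibitor of cytokine signalling, and FOS, an AP-1 subunit, with 2 each. CISH had 2 regions at its gene ends, of which 1 scored 6.93 in siFOXA1 1, against 42.6 in siNS 1 and 40.7 in siNS 2, and the other 9.82 in siFOXA1 2, against 73.1 in siNS 1 and 82.2 in siNS 2. The FOS region at the gene's end (chr14:75276904-75277931) scored 4.58 in siFOXA1 1, against 216 in siNS 1 and 126 in siNS 2. Luminal identity genes had 17 of 121 (14.0%, 8.4 to 21.5%), at 14 of 31 genes, with 5 in siFOXA1 1 and 12 in siFOXA1 2. Of the same 121 regions, 25 were kept in both and 79 in neither, so regions kept in both were also frequent in these lists. SPDEF, an ETS factor of secretory luminal cells, had 2, of which that inside the gene (chr6:34546316-34547471) scored 11.7 in siFOXA1 2, against 284 in siNS 1 and 207 in siNS 2. KRT19, a luminal keratin, had 2 in siFOXA1 2, with low scores of 3.14 and 2.75, and OVOL2, an epithelial zinc finger repressor, had 1 in each siFOXA1 library. RARA counts in 2 lists, and FOS in 2. The lists are read by counts only, and assignment by distance does not show regulation.

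Lists with few singly kept regions differed in how many regions were kept in both. Androgen response and apocrine genes had 2 of 72 (2.78%, 0.338 to 9.68%), near PMEPA1 and TMPRSS2, beside 20 regions kept in both. Wnt genes had 3 of 80 (3.75%), at or near NKD1, WNT4 and WNT7B, beside 5 kept in both. The WNT7B region, at an end of this Wnt ligand gene (chr22:45918581-45920382), scored 5.44 in siFOXA1 1, against 174 in siNS 1 and 134 in siNS 2. Neuronal genes, which have no known role in breast epithelium, had 1 of 52 (1.92%), near CNTNAP2. With genes limited to 10 kb the androgen and neuronal lists had 0, while the oestrogen list had 10 and the luminal list 15. The consensus regions of each list at that distance were not counted, so these are no shares. As a share of kept regions, singly kept regions were 52.0% for the oestrogen list (13, beside 12 kept in both) and 40.5% for the luminal list (17, beside 25). The share was 9.09% for the androgen list (2, beside 20) and 38.6% over all kept regions. The list shares rest on few regions and have no intervals, so no difference from the 38.6% is drawn from them.

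The other lists had shares of 6.32 to 10.9%, with intervals that held the 6.54% of all consensus regions, as did those of the androgen, Wnt and neuronal lists. Basal genes had 5 of 46 (10.9%), with 2 near KRT17 and 1 each inside CDH3 and ITGA6, and with genes limited to 10 kb the list had 3. Retinoid and nuclear receptor genes had 9 of 89 (10.1%), which beyond RARA included ESRRA and NR2F2 with 1 each. AP-1 and immediate early genes had 9 of 98 (9.18%), with 2 each at or near FOS, KLF10 and ZFP36L1. Notch genes had 6 of 72 (8.33%), among them DLL1, DLL4 and HES1. The HES1 region (chr3:194135727-194136314), over the promoter shown above, scored 5.01 in siFOXA1 1, against 94.0 in siNS 1 and 64.3 in siNS 2. The DLL4 region (chr15:40927862-40931038) scored 3.9 in siFOXA1 1, against 131 in siNS 1 and 79.6 in siNS 2. Groucho and corepressor genes had 9 of 141 (6.38%), with 2 each at or near HDAC7 and ID1 and 1 near BCL6. HER2, PI3K and receptor tyrosine kinase genes had 6 of 95 (6.32%), with 3 at or near SPRED2, an inhibitor of ERK signalling, and 1 each at FGFR2 and MET. All 3 SPRED2 regions were kept in siFOXA1 2.

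**Figure D5:**
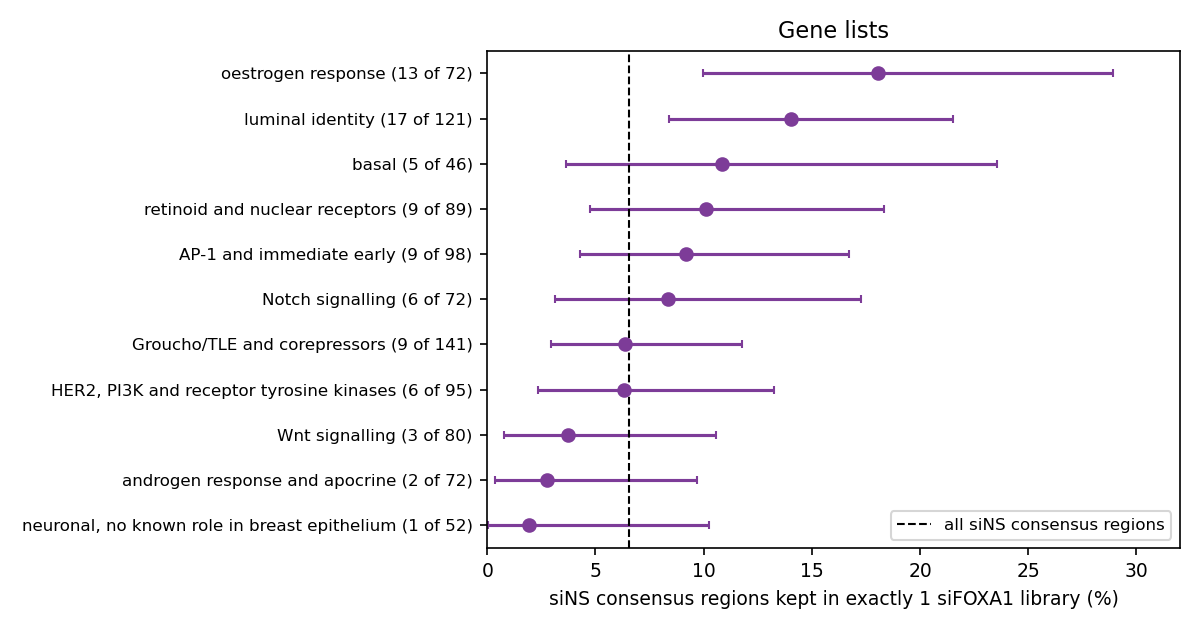
Share of the siNS consensus regions assigned to each gene list that were kept in exactly 1 siFOXA1 library, with exact 95% binomial intervals. Counts stand beside each list and the dashed line is the 6.54% of all consensus regions, which lies below the intervals of the oestrogen response and luminal identity lists. Regions kept in both are not drawn.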

How the data were processed

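TLE3 ChIP-seq of 2 siFOXA1 and 2 siNS libraries of MDA-MB-453 cells was used. The 2 input libraries, whose labels name the line MDA-MB-454, were not analysed here. The authors deposited 1 peak list per library, with 5 columns and no header, and a score per peak whose definition is not stated. Per the submitters' processing notes, Trim Galore, BWA 0.7.5a, SAMtools and MACS2 were used with build hg38. No source used here gives their settings or how inputs entered the calling. Groups and replicate numbers come from the titles, and the list of siFOXA1 2 carries another number in its name.

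Positions are 1-based on hg38. Mitochondrial peaks (4 and 9 in siFOXA1, 4 and 3 in siNS) were left out. Genes came from a RefSeq table on GRCh38.p14 (19974 protein-coding genes on the chromosomes used), without exons or strand, so the start and the other end of a gene were not told apart. Promoter sequences and microRNAs came from RefSeq tables of the same assembly, and chromosome 8 was not used in the promoter measures. Promoters were searched for 18 motifs on both strands, and the motifs named in the text were picked after their shares were seen. Percentile ranks were computed within each list, and shares have exact (Clopper-Pearson) 95% intervals. No list gives reads, so no depth and no test on counts was possible.

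The members and lists were chosen with earlier results of these data known. Named regions are the 8 strongest in siNS, the 5 highest in siFOXA1 and the 3 weakest of each set, and named genes the 10 with most singly kept regions and 3 per list, ties by symbol. Promoters shown are those of the 3 strongest regions of each set that overlapped a window, and those of listed genes. All 11 lists (279 entries) matched, 1 through a synonym. Python 3.11.15, numpy 2.4.6, scipy 1.17.1, pandas 2.3.3, matplotlib 3.10.9 and bedtools 2.31.1 were used. On simulated data the code recovered the class of 7000 of 7000 regions, and bedtools gave the same 72272 merged and 1633 singly kept regions.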

Additional observations from a re-analysis of the deposited data

How the results depend on the processing

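Requiring an overlap of at least 50% of the shorter peak gave 1569 singly kept regions (6.41% of consensus regions), and widening peaks by 250 bp gave 1670. The latter were 7.01% of consensus regions, above the interval of the 6.54% reported (6.24 to 6.85%). In both settings the share of kept regions and the positions stayed within the intervals of the values reported. Median siNS ranks were 83.8 and 81.7, and median siFOXA1 ranks 33.6 and 33.4. With only the better-scoring 50% of each list there were 821 singly kept regions, 16.0% of them at gene ends, with a median siFOXA1 rank of 28.7. With lists of equal length there were 884, which made up 35.9% of kept regions, with 30.9% at gene ends, 68.9% overlapping a gene and a median siNS rank of 70.5. Leaving out 1 siNS library at a time gave 1669 to 3225 regions, 12.3 to 20.6% at gene ends, 55.6 to 61.5% overlapping a gene and median siNS ranks of 73.7 to 81.3. The share at gene ends was 19.5% at 500 bp, 34.8% at 5 kb and 30.7% with all annotated genes, with which 74.5% overlapped a gene. The median siNS rank was 77.2 by the lower of the 2 ranks and 71.1 by peak width, against 82.8 as reported. The cause of these shifts was not tested. In each of the 4 settings that change the lists, the share of each singly kept set at gene ends was above that of regions kept in both and below that of regions kept in neither, but with the better-scoring 50% the siFOXA1 2 set (13.7%) was within the error of regions kept in both (12.3%). The siFOXA1 libraries could not be left out in turn, since the definition needs both. With genes limited to 10 kb, 1074 genes had a singly kept region. No paired analysis was possible because the results come from no test. Depth is unknown, so weak siFOXA1 binding below the calling threshold cannot be told from its absence.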
